A study of Rattus norvegicus with 8 samples.

Results

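The genes described here are 10 genes of neuropeptides and granins, chosen by name: Sst, Npy, Vip, Cck, Penk, Tac1, Crh, Adcyap1, Vgf and Scg2. All 10 were among the 16871 genes of the deposited table, and 8 of them (all but Tac1 and Crh) had enough reads to be tested with 11372 genes in all. The method, BrU-seq, reads newly made RNA: cells take bromouridine into growing transcripts for a short time, and the RNA that carries it is captured and sequenced. The cells were neurons from newborn Sprague Dawley rats, taken from hippocampus and cortex together and grown in culture, so a library holds the RNA of all cells in a well. The sample titles name only hippocampal neuron culture. The drug was tetrodotoxin (TTX, 1 µM), which blocks voltage-gated sodium channels and so stops action potentials, and its vehicle was water.

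Every culture was treated at 2 times, and each group is named by its first and second treatment, with T for TTX and H for vehicle. The first lasted 24 h from day 14 in vitro and was washed out for 48 h, and the second lasted 4 h on day 17, with 2 mM bromouridine for the last 0.5 h. TT cultures had TTX both times, HT cultures had vehicle and then TTX, TH cultures had TTX and then vehicle, and HH cultures had vehicle both times, with 2 libraries in each of the 4 groups. HT against HH and TT against TH ask what the second TTX does without and with an earlier TTX period, and TH against HH asks what the earlier period leaves behind.

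Neuropeptides are made as large precursor proteins, sorted into dense-core vesicles, cut by prohormone convertases and released mainly when a neuron fires at length. Granins such as secretogranin II (Scg2) and Vgf are packed into the same vesicles and are themselves cut into peptides. In hippocampus and cortex, somatostatin, neuropeptide Y and VIP are best known as peptides of inhibitory interneurons, and transcription of several of these genes is known to follow neuronal activity through calcium, cAMP and the transcription factor CREB, which binds the cAMP response element (CRE).

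The CRE is shown because Sst and Vgf are textbook examples of genes that carry it. RefSeq promoter windows (build GRCr8, 250 bases before to 50 after the annotated start) were at hand for 7 of the 10 members, not for Cck, Penk and Crh. The full element TGACGTCA, which reads the same on both strands, was found in 3 of these 7 windows, against 1.83% of all 33469 windows of the table. Sst and Vgf were known to carry it when it was chosen. Neither this count nor that of its short form below is thus a fair comparison with the share of all windows. The full element stands in capitals in the next 3 sequences, each of 30 bases and written along the gene's own strand.
Sst (chr11:90461537-90461566, plus strand): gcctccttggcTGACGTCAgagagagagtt
Vgf (chr12:25277092-25277121, minus strand): tgaatgaacatTGACGTCAatggggcgggg
Scg2 (chr9:88256971-88257000, minus strand): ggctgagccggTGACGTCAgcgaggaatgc
The element began 90 bases before the start of Vgf and 123 before that of Scg2. In Sst it began at base 3 of the annotated transcript, so its place relative to the start depends on which start is annotated.

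The short form TGACG, or CGTCA on the other strand, counted also inside the full one, was found in 5 of the 7 windows, against 21.2% of all windows. The other 2 members that held it were Vip and Tac1, with the short form in capitals.
Vip (chr1:44470371-44470400, plus strand): ggatcaccactgTGACGtctttcgaggagc
Tac1 (chr4:36645365-36645394, plus strand): tccctaaaattgCGTCAtttcgaacccaat
It began 97 bases before the start of Vip and 206 before that of Tac1. Npy, whose levels followed those of Sst and Vgf most closely, held neither form in its window, and the 150 bases before its start are given for comparison.
Npy (chr4:80211961-80212110, plus strand): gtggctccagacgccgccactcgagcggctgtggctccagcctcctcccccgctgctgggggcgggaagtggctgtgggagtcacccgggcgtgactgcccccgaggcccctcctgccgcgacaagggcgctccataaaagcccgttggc
A TATA box in the form TATAAA, searched on both strands, was found in 3 of the 7 windows (Vip, Adcyap1 and Vgf), against 14.2% of all. A match of letters describes a sequence and is not a measured binding site.

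Total counts per library lay between 3489176 and 4959887. Levels below (CPM) are counts scaled to the library total times its TMM scaling factor from edgeR. These factors lay between 0.901 in HH replicate 1 and 1.04 in TH replicate 1. Levels in HH replicate 1 thus stand higher than scaling to the plain total would put them. CPM is not corrected for gene length, so levels are compared between libraries and not between genes. Replicates of each group were further apart than counting alone would make them (chi-square over degrees of freedom between 4.04 and 11.4), and each of the 8 libraries correlated best with a library of another group (the highest Pearson r over genes, 0.988, was that of TH replicate 2 with TT replicate 2). No gene of the 11372 reached an adjusted p under 0.05 in edgeR's quasi-likelihood test in any of the 7 comparisons made (0% called in each; the smallest adjusted p was 0.192), and no member did. The changes of members are therefore given as values with their standard errors, and the words rose and fell are not used of them. The labels do not say whether replicates came from separate cultures, so a p-value speaks only of the spread among 8 libraries, part of which may be technical.

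Somatostatin, neuropeptide Y and the granin precursor Vgf shared 1 pattern: high in 3 of the 4 libraries given vehicle second, and lower in all 4 libraries given TTX second and in TH replicate 2. Sst, the precursor of somatostatin, which inhibits release from many cells, had 55.1 and 32.5 CPM in TT, 53.6 and 64.6 CPM in HT, 93.1 and 33.2 CPM in TH, and 91.0 and 94.2 CPM in HH. Both HT libraries thus lay below both HH libraries, while TT and TH overlapped because the replicates of TH lay far apart. The log2 change of Sst was -0.65 ± 0.46 in HT against HH and -0.52 ± 0.47 in TT against TH (SE, n = 2 libraries per group; edgeR adjusted p = 0.852 and 1.00).

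Npy encodes neuropeptide Y, a peptide that dampens excitatory transmission in the hippocampus. It had 15.7 and 8.76 CPM in TT, 16.6 and 16.3 CPM in HT, 30.4 and 8.70 CPM in TH, and 36.1 and 24.3 CPM in HH. As with Sst, the HT libraries lay below the HH libraries without overlap, and TH replicate 2 lay at the level of TT replicate 2. The log2 change of Npy was -0.87 ± 0.56 in HT against HH and -0.65 ± 0.59 in TT against TH (SE, n = 2 libraries per group; edgeR adjusted p = 0.852 and 1.00).

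Vgf, named for its induction by nerve growth factor, had 49.3 and 29.9 CPM in TT, 72.2 and 51.1 CPM in HT, 110 and 35.2 CPM in TH, and 115 and 101 CPM in HH. The HT and HH libraries did not overlap, and, as in Sst and Npy, TH replicate 1 lay beside the HH libraries and TH replicate 2 beside the TT libraries. Its log2 change was -0.81 ± 0.52 in HT against HH and -0.86 ± 0.53 in TT against TH (SE, n = 2 libraries per group; edgeR adjusted p = 0.852 and 1.00). TT libraries also lay below HT libraries without overlap for Vgf and for Npy.

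**Figure D1:**
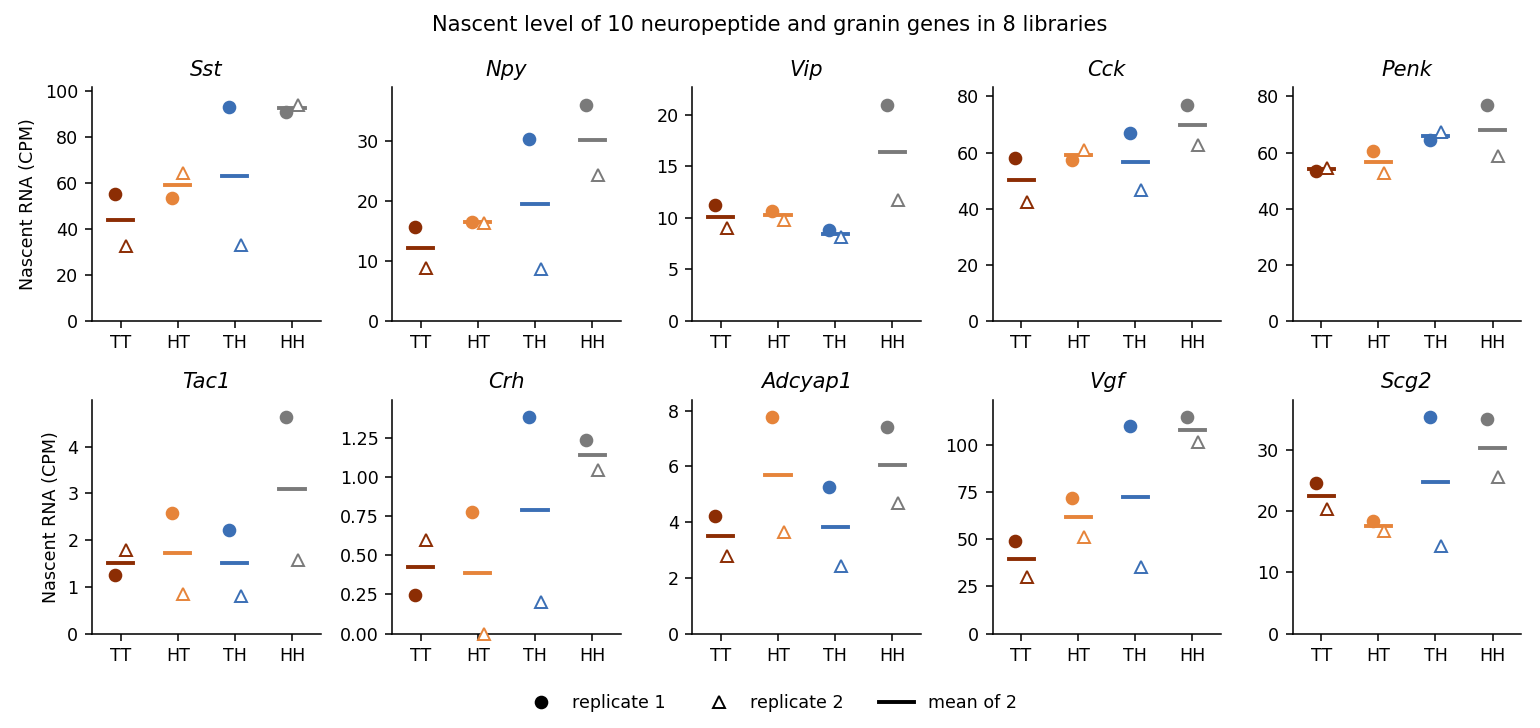
Level of each member in each library, 1 panel a gene. The vertical axis is CPM and starts at 0, points are single libraries in the groups TT, HT, TH and HH from left to right, and bars are the group means. In Sst, Npy and Vgf the 2 TH points lie far apart, at 93.1 and 33.2 CPM for Sst, and the HH points lie above all HT points.

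Scg2 encodes secretogranin II, a granin that gives rise to the peptide secretoneurin. It had 24.7 and 20.3 CPM in TT, 18.4 and 16.8 CPM in HT, 35.4 and 14.4 CPM in TH, and 35.2 and 25.6 CPM in HH. HT lay below HH without overlap, TT lay above HT without overlap, and TH held both the highest and the lowest library. The log2 change was -0.78 ± 0.38 in HT against HH (SE, n = 2 libraries per group; edgeR adjusted p = 0.795) and -0.12 ± 0.37 in TT against TH (adjusted p = 1.00).

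Cck encodes cholecystokinin, a peptide of a class of basket interneurons that pyramidal cells also express. Its levels were 58.1 and 42.4 CPM in TT, 57.2 and 60.9 CPM in HT, 66.9 and 46.7 CPM in TH, and 77.1 and 62.9 CPM in HH. The spread was smaller than that of Sst: HT lay below HH by a narrow gap, and TH replicate 2 lay among the libraries given TTX second. The log2 change was -0.24 ± 0.20 in HT against HH and -0.17 ± 0.20 in TT against TH (SE, n = 2 libraries per group; edgeR adjusted p = 0.868 and 1.00). Without HH replicate 1 the change of Cck in HT against HH was -0.087 ± 0.23.

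Penk encodes proenkephalin, the precursor of the enkephalins, which act on opioid receptors. It had 53.6 and 54.6 CPM in TT, 60.5 and 52.8 CPM in HT, 64.4 and 67.4 CPM in TH, and 77.1 and 58.9 CPM in HH. It was the member with the smallest spread, its TH replicates were alike, and it was the only member whose TT libraries lay below both TH libraries. The log2 change of Penk was -0.26 ± 0.15 in HT against HH and -0.29 ± 0.15 in TT against TH (SE, n = 2 libraries per group; edgeR adjusted p = 0.833 and 1.00). The value in HT against HH rested on HH replicate 1, without which it was -0.052 ± 0.17.

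Vip encodes vasoactive intestinal peptide, found in interneurons that mainly inhibit other interneurons. It had 11.2 and 8.96 CPM in TT, 10.6 and 9.83 CPM in HT, 8.84 and 8.09 CPM in TH, and 21.0 and 11.7 CPM in HH. HH lay above HT and above TH without overlap, and TT lay above TH by a narrow gap. Its log2 change was -0.66 ± 0.29 in HT against HH (SE, n = 2 libraries per group; edgeR adjusted p = 0.754) and 0.25 ± 0.30 in TT against TH (adjusted p = 1.00). Here too 1 library decided the size: without HH replicate 1 the change in HT against HH was -0.19 ± 0.30.

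Adcyap1 encodes PACAP, a peptide that raises cAMP through its receptors. It had 4.24 and 2.79 CPM in TT, 7.76 and 3.65 CPM in HT, 5.25 and 2.43 CPM in TH, and 7.40 and 4.69 CPM in HH. The first replicate of each group was the higher one, all groups overlapped in HT against HH and in TT against TH, and the changes were -0.054 ± 0.46 and -0.093 ± 0.51 (log2, SE, n = 2 libraries per group; edgeR adjusted p = 0.990 and 1.00).

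Tac1, which encodes substance P and neurokinin A, and Crh, which encodes corticotropin-releasing hormone, were too low for the test. Tac1 had 1.25 and 1.79 CPM in TT, 2.59 and 0.842 CPM in HT, 2.21 and 0.809 CPM in TH, and 4.63 and 1.56 CPM in HH, from 3 to 15 reads per library. Crh had 0.249 and 0.598 CPM in TT, 0.776 and 0 CPM in HT, 1.38 and 0.202 CPM in TH, and 1.23 and 1.04 CPM in HH. With 0 to 5 reads per library, Crh was close to the limit of detection, and the count of 0 in HT replicate 2 allows a level of up to 0.842 CPM (3 reads; counting error only). Summed over 4 libraries, Tac1 had 27 reads with the second TTX and 33 with vehicle, and Crh had 7 reads with the second TTX and 14 with vehicle.

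In HT against HH all 8 tested members lay below 0, between -0.87 and -0.054, with a median of -0.66 on the log2 scale. Of all genes tested 49.8% lay below 0, with a median of 0.00. At an unadjusted p under 0.05 in edgeR, 1 of the 8 members (Vip) was lower, against 2.73% of all genes. Without TH replicate 2, which is in neither group but enters the estimate of the spread, 4 of the 8 were (Sst, Npy, Vgf and Scg2, not Vip), against 2.72% of all genes. Without HH replicate 1 none was, and the median of the members was -0.36. Both HT libraries lay below both HH libraries for 6 of the 8 (Sst, Npy, Vip, Cck, Vgf and Scg2), against 16.7% of all genes. The count without TH replicate 2 leaves out a library that widened the spread of Sst, Npy, Vgf and Scg2. It is therefore no fair comparison with the share of all genes.

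In TT against TH 7 of the 8 lay below 0, with a median of -0.23, and Vip lay above. Of all genes tested 49.1% lay below 0. No member had an unadjusted p under 0.05 in the lower direction in edgeR, against 0.923% of all genes, and Penk alone had both TT libraries below both TH libraries (1 of 8), against 14.1% of all genes. TH replicate 2 lay within or below the range of the TT libraries for all tested members but Penk.

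**Figure D2:**
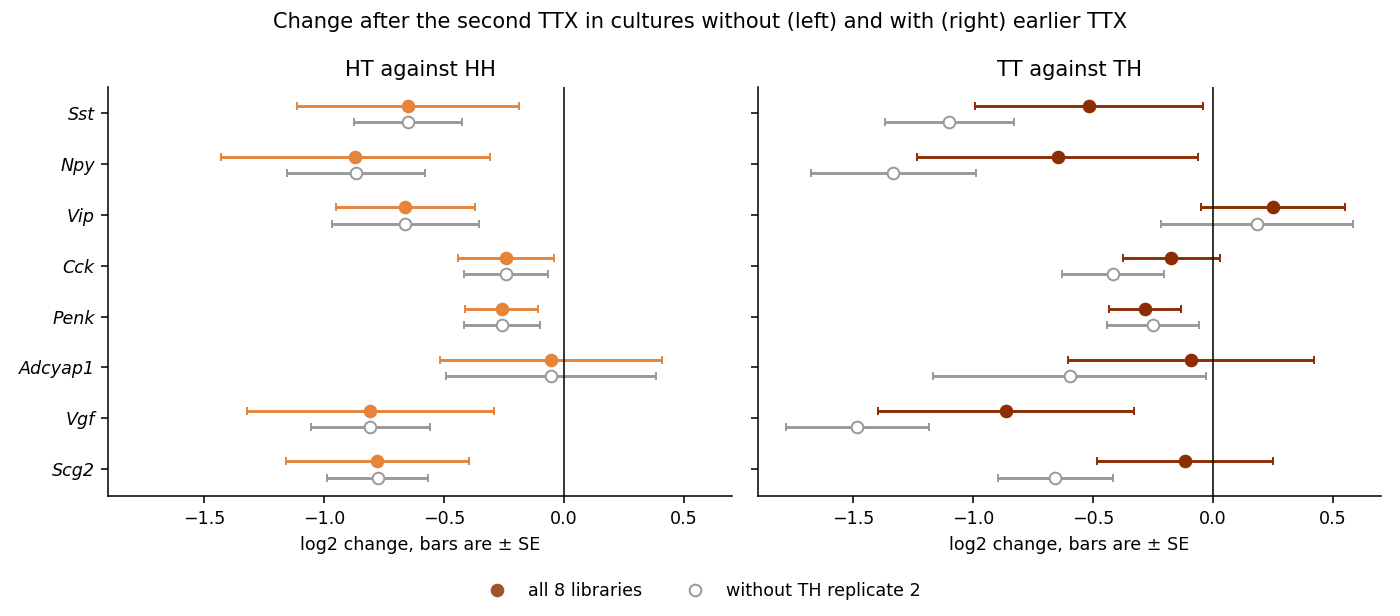
Log2 change of each tested member with the second TTX, HT against HH on the left and TT against TH on the right. Filled points are the fit to all 8 libraries, open grey points the fit without TH replicate 2, and bars are ± SE. Without that library Vgf lay at -1.48, Npy at -1.33 and Sst at -1.10 in TT against TH.

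TH replicates 1 and 2 differed more in 5 of the 8 tested members than in nearly all other genes. The level in TH replicate 1 was 3.49 times that in TH replicate 2 for Npy, 3.12 times for Vgf, 2.81 times for Sst, 2.46 times for Scg2 and 2.16 times for Adcyap1. A smaller log2 ratio was found in 98.9% of the tested genes for Adcyap1 and in up to 99.97%, for Npy, among these 5 members. Cck (1.43 times), Vip (1.09 times) and Penk (0.955 times) differed less, so that 5 of the 8 members exceeded 1.5 times, against 6.38% of all genes. TT replicate 1 also exceeded TT replicate 2 by 1.79 times for Npy, 1.70 times for Sst and 1.65 times for Vgf.

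**Figure D3:**
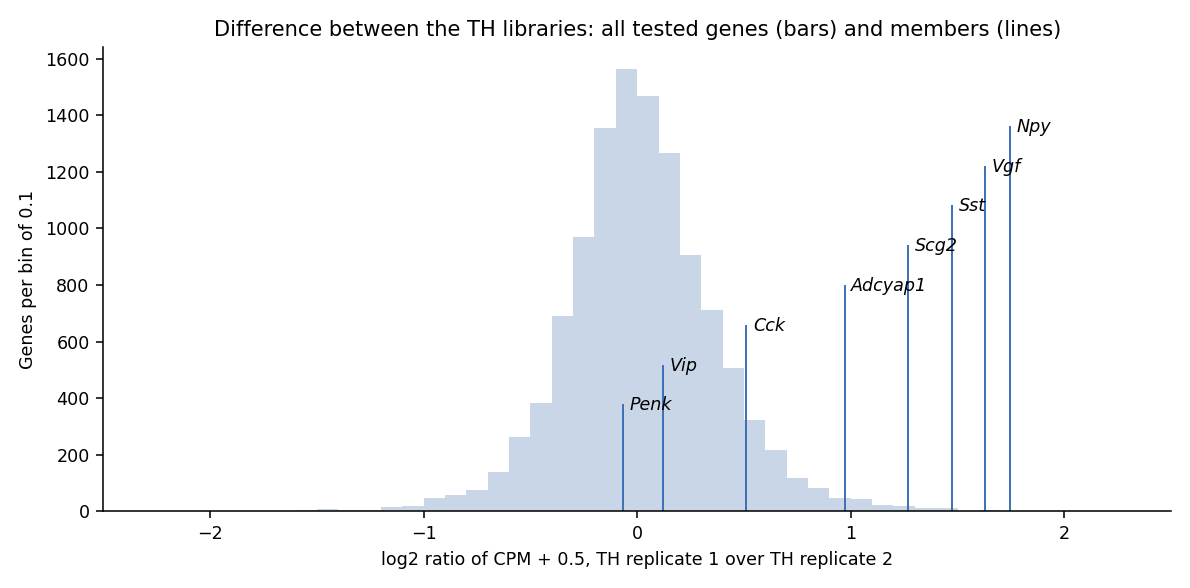
Distribution of the log2 ratio of TH replicate 1 to TH replicate 2 over all 11372 tested genes, in bins of 0.1, computed from CPM + 0.5. Vertical lines mark the 8 tested members (their height has no meaning), and those of Sst, Npy, Vgf, Scg2 and Adcyap1 lie in the right tail.

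Other markers in the TH libraries did not part in this way. The median level of 16 inhibitory neuron markers, centred on its mean over the 8 libraries, was 0.096 in TH replicate 1 and -0.070 in TH replicate 2 on the log2 scale, and that of 18 rapid activity-response genes was -0.041 and -0.32. The median of the 8 tested members was 0.42 and -0.70 in the same libraries. Gad1 had 335 and 249 CPM and Gad2 had 298 and 305 CPM in these libraries, so the defining markers of inhibitory neurons were well detected in both. What set TH replicate 2 apart was not tested.

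Leaving TH replicate 2 out moved TT against TH to -1.48 ± 0.30 for Vgf, -1.33 ± 0.34 for Npy, -1.10 ± 0.27 for Sst, -0.66 ± 0.24 for Scg2 and -0.42 ± 0.21 for Cck (log2, SE; edgeR adjusted p of 0.877 or more). TH then held 1 library, which was assumed to vary like the other groups. Leaving out TH replicate 1 in its place turned the sign, to 0.46 for Npy, 0.38 for Sst and 0.15 for Vgf. At an unadjusted p under 0.05 in edgeR, 4 of 8 members (Vgf, Npy, Sst and Scg2) were lower without TH replicate 2, against 2.5% of all genes. The direction of these genes in cultures with a TTX history thus rested on which TH library was kept. Their lower TH level was in TH replicate 2, so leaving it out moves TT against TH down by construction. The members' count without it is therefore no fair comparison with the share of all genes.

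Averaged over both histories, all 8 members lay below 0 with the second TTX, between -0.83 and -0.073, with a median of -0.36, and 50.3% of all genes tested lay below 0. At an unadjusted p under 0.05 in edgeR, 1 of 8 was lower, against 2.59% of all genes: Penk, at 55.4 ± 3.53 CPM with TTX and 67.0 ± 7.62 CPM with vehicle (SD, n = 4 libraries each), a log2 change of -0.27 ± 0.11 (edgeR adjusted p = 0.648). Without HH replicate 1 the change of Penk was -0.17 ± 0.11, and no member was under 0.05. Vgf averaged 50.6 ± 17.3 CPM with the second TTX and 90.3 ± 37.2 CPM with vehicle, Sst 51.4 ± 13.5 CPM with TTX and 77.9 ± 29.8 CPM with vehicle, and Npy 14.3 ± 3.72 CPM with TTX and 24.9 ± 11.8 CPM with vehicle (SD, n = 4 libraries each). The spread among the vehicle libraries of these 3 genes was wide, with TH replicate 2 far below the others.

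In none of the 8 members did all 4 libraries with the second TTX lie below all 4 with vehicle, against 1.64% of all genes. Without TH replicate 2, a count added after the data were seen, this held for 5 of the 8 (Sst, Npy, Cck, Vgf and Scg2), against 4.92% of all genes. TH replicate 2 held the lowest vehicle level of each of these 5, so leaving it out favours their separation and narrows their spread by construction. The members' counts without that library are therefore no fair comparison with the shares of all genes, and no conclusion is drawn from them. At an unadjusted p under 0.05 in edgeR the same 5, and not Penk, were lower without TH replicate 2, against 3.74% of all genes. The averaged change was then -1.14 ± 0.19 for Vgf (edgeR adjusted p = 0.246), against -0.83 ± 0.37 with all libraries (adjusted p = 0.750). It was -1.10 ± 0.22 for Npy, against -0.76 ± 0.41 with all libraries, -0.87 ± 0.18 for Sst, against -0.58 ± 0.33, and -0.72 ± 0.16 for Scg2, against -0.45 ± 0.26 (edgeR adjusted p of 0.262 to 0.271 without that library). Without TH replicate 1 in its place the averaged changes were smaller, at -0.33 for Vgf, -0.20 for Npy, -0.14 for Sst and -0.073 for Scg2. No member passed the adjusted threshold in these fits.

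In TH against HH, which asks about the earlier TTX period, Vip was the member of smallest p. Its log2 change was -0.94 ± 0.29 (SE, n = 2 libraries per group; edgeR adjusted p = 0.891), which made it gene 32 of 11372 by p. It was the 1 member of 8 lower at an unadjusted p under 0.05 there, against 2.02% of all genes. All 8 members lay below 0 in this comparison, with a median of -0.59, and 49.8% of all genes did. Without HH replicate 2 the change of Vip was -1.31 ± 0.28, and without HH replicate 1 it was -0.47 ± 0.30. HH then held 1 library in each of these fits. In the former it was HH replicate 1, where the rapid activity-response genes stood highest. Their median was 1.53 there, against -0.30 in HH replicate 2 (log2, centred). Without TH replicate 2 only 4 of the 8 members lay below 0, with a median of -0.028.

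With TTX as the second treatment, TT against HT, no member was lower at an unadjusted p under 0.05 in edgeR, against 1.06% of all genes, and 7 of 8 lay below 0 with a median of -0.34. The 2 members of smallest p were Adcyap1 at -0.73 ± 0.48 and Cck at -0.24 ± 0.20 (log2, SE, n = 2 libraries per group; edgeR adjusted p = 1.00 for both). Vip was at -0.029 ± 0.30 there. Averaged over the second treatment, the TTX history gave 7 of 8 members below 0, with a median of -0.50, and 1 of 8 (Vip) lower at an unadjusted p under 0.05 in edgeR, against 2.74% of all genes. The averaged change of Vip was -0.48 ± 0.21 (log2, SE; edgeR adjusted p = 0.814), and that of Adcyap1 was larger at -0.71 ± 0.34 (adjusted p = 0.814). Without HH replicate 1 Vip was at -0.25 ± 0.20, and no member was under 0.05.

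The interaction asks whether the second TTX acted differently after an earlier TTX period. For Vip, whose sign was negative in HT against HH and positive in TT against TH, the difference of the log2 changes was 0.91 ± 0.42 (SE; edgeR adjusted p = 1.00), and for Scg2 it was 0.66 ± 0.53 (adjusted p = 1.00). No member had an unadjusted p under 0.05 in either direction, against 1.64% of all genes. Without HH replicate 1 the difference for Vip was 0.44 ± 0.39. Members split, with 3 of 8 below 0 and a median of 0.10.

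Some of the tested members varied widely between libraries and others did not. The standard deviation of log2 CPM over the 8 libraries was 0.75 for Vgf, 0.73 for Npy and 0.62 for Sst, larger than in 99.2%, 99.1% and 98.0% of the tested genes. It was 0.27 for Cck and 0.19 for Penk, larger than in 70.5% and 45.0%. Of the 8 tested members, 4 had their lowest level in TH replicate 2 and 3 in TT replicate 2. The highest level was in HH replicate 1 for 5 of them.

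The genes nearest to a member by profile were sought among 9771 genes with a mean of at least 5 CPM, by the root mean square difference of log2 CPM centred over the 8 libraries. Vgf and Npy were nearest to each other at 0.18, Sst was the second nearest to each of them (0.20 to Npy and 0.24 to Vgf), and after Npy the gene nearest to Sst was Ldha, a subunit of lactate dehydrogenase, at 0.23. For Vip they were Sstr1, a somatostatin receptor, at 0.10 and Plat, tissue plasminogen activator, at 0.12. Cck lay nearest to Pdha1 and Sema3e (0.058 each), Penk to Prkx (0.064) and Cdyl2 (0.074), Adcyap1 to Mgst3 (0.13) and Bace2 (0.20), and Scg2 to Timm10 (0.19) and Chrm4 (0.20). The measure covers all 8 libraries, so it holds the spread between replicates as much as the treatments.

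The tested receptors of the member peptides all had lower averages with the second TTX, none past the adjusted threshold. Of 23 listed receptors 14 were tested, and all 14 lay below 0 in the second TTX averaged over history, with a median of -0.26 (2 of 14 lower at an unadjusted p under 0.05 in edgeR and 0 at the adjusted threshold). Of all genes tested 50.3% lay below 0, and 2.59% were lower at that p. Vipr2, the VPAC2 receptor for VIP and PACAP, had 5.48 and 7.37 CPM in TT, 6.99 and 3.09 CPM in HT, 22.9 and 10.5 CPM in TH, and 12.03 and 19.0 CPM in HH. Every library with the second TTX thus lay below every library with vehicle, as in 1.64% of all genes. The averaged log2 change of Vipr2 was -1.47 ± 0.33 (SE, n = 4 libraries each, edgeR adjusted p = 0.280). Tacr1, the receptor of substance P, was at -0.34 ± 0.12 (edgeR adjusted p = 0.537), likewise with no overlap, and the somatostatin receptor Sstr3 (-0.47 ± 0.29) and the delta opioid receptor Oprd1 (-0.31 ± 0.20) completed the 4 of smallest p.

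The genes that process and pack the peptides lay to both sides of 0 with the second TTX and mostly below 0 with the TTX history. Of 16 tested genes of processing and packaging 10 lay below 0 with the second TTX averaged over history, with a median of -0.072 and none at an unadjusted p under 0.05 in edgeR. Pcsk1, a prohormone convertase that cuts many precursors, had 12.2 and 7.57 CPM in TT, 18.4 and 10.9 CPM in HT, 13.0 and 9.11 CPM in TH, and 38.6 and 20.6 CPM in HH, with both HH libraries above the other 6. Its averaged change with the second TTX was -0.58 ± 0.28, beside -0.23 ± 0.13 for Pcsk2, 0.22 ± 0.13 for Pcsk7 and 0.17 ± 0.12 for Pcsk6 (log2, SE, n = 4 libraries each). With the TTX history averaged over the second treatment, 15 of the 16 lay below 0, with a median of -0.15 and 3 lower at an unadjusted p under 0.05 in edgeR, where 50.0% of all genes lay below 0 and 2.74% were lower at that p. The median level of the 16 was 0.22 and -0.033 in HH and 0.16 and -0.046 in HT (log2, centred). It was -0.14 and -0.046 in TH and -0.077 and -0.063 in TT. Only replicate 1 of HH and of HT thus lay above 0, so the history average rested largely on these 2 libraries. In TH against HH, where 14 of the 16 lay below 0, Pcsk1 was at -1.43 ± 0.38 and was gene 12 of 11372 by p (edgeR adjusted p = 0.891).

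Of 5 other granin genes, all tested, 3 lay below 0, with a median of -0.10. Chromogranin B (Chgb) had 93.9 and 82.5 CPM in TT, 91.8 and 88.4 CPM in HT, 119 and 95.1 CPM in TH, and 94.4 and 109 CPM in HH, with no overlap between the second TTX and vehicle and a change of -0.23 ± 0.10 (log2, SE, n = 4 libraries each; edgeR adjusted p = 0.718). The others of smallest p were Scg5 (-0.21 ± 0.10), Scg3 (-0.10 ± 0.10) and Pcsk1n (0.055 ± 0.13). A lower level without overlap, as in Chgb, was found in 1.64% of all genes.

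Of 45 other listed precursors of neuropeptides 43 were in the table, and most were too low to test. Of the 9 tested, 7 lay below 0 with the second TTX averaged over history, with a median of -0.062, and 50.3% of all genes tested did. At an unadjusted p under 0.05 in edgeR 2 of the 9 were lower, against 2.59% of all genes. These were Nppc, the precursor of C-type natriuretic peptide, at -1.11 ± 0.39 (adjusted p = 0.549) and Nmb, the precursor of neuromedin B, at -0.92 ± 0.35 (adjusted p = 0.628). Both had all 4 libraries with the second TTX below all 4 with vehicle, as had 1.64% of all genes. Both were low, at 5 to 19 reads per library in Nppc (1.29 to 5.25 CPM) and 5 to 18 reads in Nmb. Pnoc (-0.57 ± 0.35) and Galp (-0.39 ± 0.31) followed.

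Markers of the cells in the cultures are given beside the members, and none passed the adjusted threshold. The 16 tested inhibitory neuron markers had a median of -0.22 with the second TTX averaged over history, with 13 below 0, and summed to 3864 to 4775 CPM with TTX and 4230 to 6621 CPM with vehicle. The 6621 CPM were in HH replicate 1. TH replicate 2, where the median of the members was lowest, had 5011 CPM. Erbb4 alone gave 2058 to 3544 CPM of these sums. Gad1, which makes GABA, was at -0.58 ± 0.14 and Gad2, which does so too, at -0.44 ± 0.12 (log2, SE, n = 4 libraries each; edgeR adjusted p = 0.284 and 0.345). Of the 11 tested oligodendrocyte lineage markers 10 lay above 0, with a median of 0.54, and they summed to 1054 to 1739 CPM with the second TTX and 737 to 1128 CPM with vehicle. Astrocyte markers summed to 1820 to 2184 CPM with the second TTX and 1542 to 1885 CPM with vehicle. The 11 tested excitatory neuron markers had a median of -0.022 with the second TTX averaged over history, with 7 below 0. Excitatory neuron markers summed to 1173 to 1588 CPM with the second TTX and 1350 to 1625 CPM with vehicle, so both kinds of neuron were well represented, and microglia markers to at most 20.2 CPM. In cultures of mixed cells, fewer cells of a type and less new RNA per cell cannot be told apart, and the part of these markers in the members' values was not tested.

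**Figure D4:**
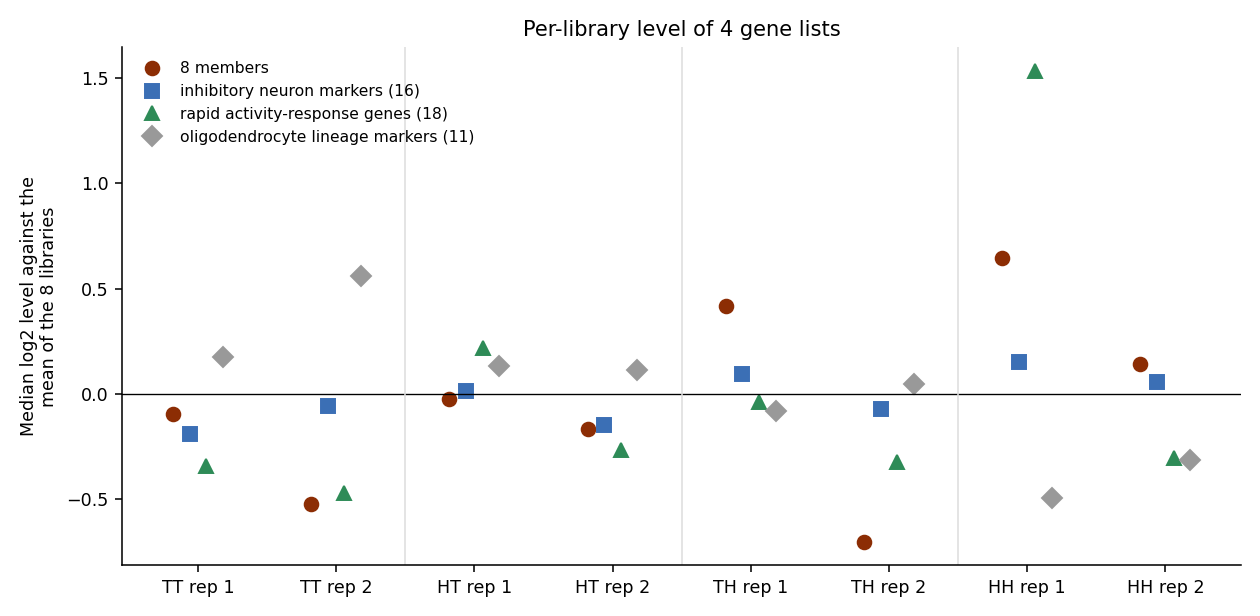
Median level of 4 gene lists in each library, on a log2 scale centred per gene over the 8 libraries, with groups TT, HT, TH and HH from left to right. The 8 tested members are lowest in TH replicate 2 at -0.70 and highest in HH replicate 1 at 0.64, and the rapid activity-response genes stand highest in HH replicate 1 at 1.53.

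Genes that respond rapidly to activity set HH replicate 1 apart. Their median level over 18 genes was -0.34 and -0.47 in TT, 0.22 and -0.27 in HT, -0.041 and -0.32 in TH, and 1.53 and -0.30 in HH (log2, centred). HH replicate 2 lay at the level of the other groups in these genes. It had 94.2 CPM of Sst and 101 CPM of Vgf, beside 91.0 and 115 CPM in HH replicate 1. The ratio of HH replicate 1 to HH replicate 2 was 0.97 for Sst, 1.13 for Vgf, 1.23 for Cck and 1.31 for Penk. It was 1.38 for Scg2, 1.49 for Npy, 1.58 for Adcyap1 and 1.79 for Vip. A link between these levels and the activity-response genes was not tested. Npy, Vip, Cck, Penk, Vgf and Tac1 were highest in HH replicate 1. Without it the change in HT against HH was -0.56 ± 0.59 for Npy, against -0.87 with all libraries, and -0.53 ± 0.45 for Scg2, against -0.78. With the second TTX averaged over history, 17 of the 18 rapid activity-response genes lay below 0, against 50.3% of all genes tested. Their median was -0.46, and Egr2 led them at -0.90 ± 0.36 (edgeR adjusted p = 0.655). The median was -0.78 in HT against HH, which holds HH replicate 1, and -0.052 in TT against TH, where 12 of the 18 lay below 0. Of 10 tested genes of the CREB pathway 4 lay below 0 with the second TTX averaged over history, with a median of 0.029 and none at an unadjusted p under 0.05 in edgeR.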

How the data were processed

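Nascent RNA was measured in 8 libraries of cultured rat neurons, 2 in each of 4 groups taken with the replicate numbers from the sample titles. The authors deposited raw read counts per gene symbol. The submitters' processing notes name rat build rn6 and the tools featureCounts, TopHat2, Bowtie2 and FastQC. Versions, annotation, strand setting and the use of intronic reads were not given in the sources used here. Reads of overlapping genes may not be told apart, and a setting without introns would lower genes with long introns. The sample of a column was read from the leading number in the sample descriptions; 2 columns belonged to none and were left out. The labels give no batch.

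The tests used edgeR 4.0.16 in R 4.3.3, after filtering of low genes by group and TMM scaling. All 4 groups were fitted together, which left 4 residual degrees of freedom, and contrasts were tested by robust quasi-likelihood, with p-values adjusted by Benjamini and Hochberg over all 11372 genes tested and a threshold of 0.05. The SE is the absolute log2 change over the root of the F statistic, and it draws on the spread within all groups. Total counts of 3489176 to 4959887 set the counting error, and CPM are not corrected for gene length. Alternatives were limma-voom (limma 3.58.1), DESeq2 1.42.0, RLE scaling, the plain library total, no filter, a replicate block, fits to the compared groups alone and libraries left out. The steps were tested on simulated counts. Promoter windows came from a RefSeq table of build GRCr8, which is not the build of the counts.

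The 10 members, the gene lists and the tests were chosen with earlier results of these data known. The text names every member with its CPM, its change in HT against HH and TT against TH, and elsewhere members with an unadjusted p under 0.05 or else the 2 of smallest p. In the average over histories the changes of Vgf, Npy, Sst and Scg2, and in the lists Vipr2 and other library values, were added after their values were seen. Of other lists up to 4 genes of smallest p are named, and of each member the 2 nearest profiles.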

Additional observations from a re-analysis of the deposited data

Results flagged for a closer look

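In 40 sets of 4 libraries (the tested and low members by second or first treatment), 3 had a lowest or highest library far from the rest by Dixon's test at the 95% level, and chance gives about 1 in 20. Sst had 33.2 CPM in TH replicate 2, the lowest of the 4 libraries given vehicle second, with the nearest at 91.0 CPM. Vgf had 35.2 CPM in the same library, with the nearest at 101 CPM. Npy had 8.76 CPM in TT replicate 2, the lowest of the 4 libraries given TTX second, with the nearest at 15.7 CPM.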

How the results depend on the processing

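No member passed the adjusted threshold in the fit to all libraries, and of 469 alternative values of 30 member changes 19 had the other sign and 1 passed it: Vip in TH against HH without HH replicate 2. HH then held 1 library, HH replicate 1. Genes called changed from 0 to 13 with DESeq2 (7 higher, 6 lower, among them Vipr2) and to 16 without the low-count filter (11 higher, 5 lower) for the second TTX averaged over history, with no member among them. With limma-voom Scg2 in TT against TH was 0.050, and 1 member lay below 0 in the interaction.

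With 1 library, or a named pair of libraries, left out, genes called ranged from 0 to 39 in HT against HH, 0 to 1 in TT against TH, 0 to 121 in TH against HH, 0 to 8 for the second TTX averaged, 0 to 104 for the history averaged and 0 to 2 for the interaction; the highest counts but that of TT against TH came without HH replicate 2. Members below 0 ranged from 1 (without TH replicate 1) to 7 in TT against TH, 2 (without HH replicate 1 and TH replicate 2) to 8 in TH against HH, and 0 to 7 in the interaction. The members' median ranged from -0.64 to 0.34 in TT against TH, -1.18 to 0.13 in TH against HH and -0.39 to 0.96 in the interaction. In TT against TH the change ranged from -1.11 to 0.38 for Sst, -1.35 to 0.46 for Npy, -0.43 to 0.093 for Cck, -0.61 to 0.50 for Adcyap1, -1.50 to 0.15 for Vgf and -0.67 to 0.64 for Scg2. Adcyap1 ranged from -0.71 to 0.37 in HT against HH and -0.40 to 0.22 for the second TTX averaged, Vip from -0.40 to 0.023 there, and Scg2 from -0.14 to 1.42 in the interaction. For the second TTX averaged, Vgf ranged from -1.14 to -0.33, Npy from -1.10 to -0.20, Sst from -0.89 to -0.14, Scg2 from -0.72 to -0.073, Cck from -0.33 to -0.076 and Penk from -0.37 to -0.16. Members at an unadjusted p under 0.05 numbered 0 to 4 in HT against HH and in TT against TH, 0 to 5 in both averages, 0 to 6 in TH against HH, 0 to 1 in TT against HT and 0 to 3 in the interaction. Without TH replicate 2 the members with no overlap between the second TTX and vehicle numbered 5. The cause of these shifts was not tested.

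With a replicate block edgeR called 0 genes in each comparison, and 1 member lay below 0 in the interaction. Replicate differences correlated between groups at -0.066 to 0.087, except at 0.447 for HT and HH. The replicate numbers thus gave no sign of pairing in the other pairs of groups. HT and HH shared part of their replicate difference, and its source was not tested. Depth limits Tac1 and Crh, which without the filter gave -0.78 ± 0.66 and -1.42 ± 1.15 in HT against HH (log2, SE).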
